A study of Mus musculus with 4 samples.

Results

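The genes described here encode the intracellular components that carry signals from fibroblast growth factor (FGF) receptors through the RAS-MAPK, PLCG and PI3K-AKT routes. They were chosen by name, as the array probes that are not controls and whose gene name is among 37 listed members. All 37 were found among the 29875 genes on the array, with 62 of its 39429 probes. Expression was compared in whole ureters of E14.5 mouse embryos (NMRI strain). The mutants, called cDKO (conditional double knockout), were Tbx18(cre/+) and carried floxed alleles on both copies of each receptor gene, Fgfr1(fl/fl) and Fgfr2(fl/fl). The controls were Fgfr1(fl/?) and Fgfr2(fl/?), with the second allele left unstated and no cre allele listed. Tbx18 is active in the mesenchyme around the ureter, so this cre reaches mesenchymal cells and their descendants but not the urothelium, while the RNA came from all cells of the organ. The 4 arrays were two-colour, each comparing a cDKO extract with a control extract, and the dyes were exchanged on replicates 2 and 4.

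When an FGF binds its receptor, the receptor phosphorylates the docking protein FRS, which recruits GRB and SOS proteins and thereby loads RAS with GTP. RAS starts the RAF, MEK and ERK kinase cascade, while GAB adaptors and PI3K lead to AKT, which restrains TSC and FOXO proteins and releases mTOR. A further branch runs through phospholipase C gamma to protein kinase C. These proteins are used by many receptors besides those for FGF, and their activity is set mainly by phosphorylation and GTP loading, which an array of transcripts does not measure.

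The transcripts of this machinery differed little between cDKO and control ureters. None of the 37 genes was called at an adjusted p under 0.05 in limma, against 0.852% of the 19365 genes tested (165 genes; 0.553% rose and 0.3% fell). The number called over all genes was 34 without replicate 1, 56 without replicate 2, 266 without replicate 3 and 403 without replicate 4, and the number of members called was 0 in each case. At an unadjusted p under 0.05 there were 7 members (18.9%, 6 positive and 1 negative), against 19.6% of all genes (11.7% positive and 7.88% negative). With the arrays centred on their medians in place of loess no member reached that p. Over all 19365 genes the number also fell then, to 1288 from 3789 with loess. Every fitted log2 ratio lay between -0.31 (Crk) and 0.34 (Grb2), and 28 of the 37 were smaller than 0.20 in size. The smallest change that was called in any gene had a size of 0.48, which none of the members reached.

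**Figure D1:**
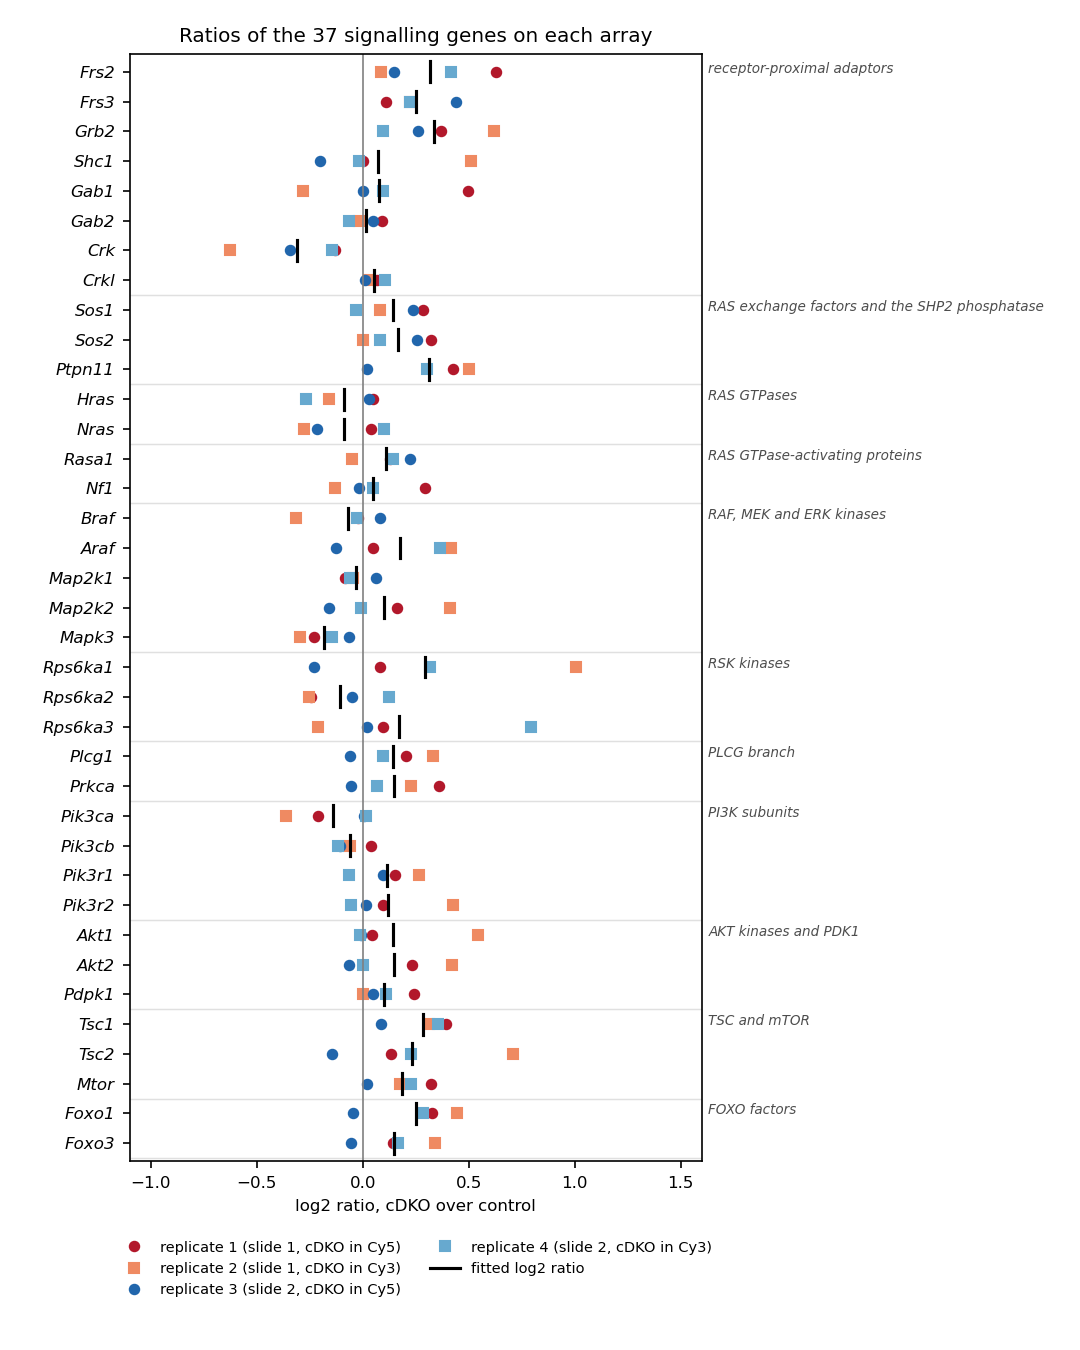
Log2 ratio of cDKO over control (x axis) for the 37 genes (y axis, grouped by role). Points are the 4 arrays, coloured by slide and shaped by dye, and the black bar is the fitted ratio. The fitted ratios lie between -0.31 and 0.34, and for most genes the arrays fall on both sides of 0.

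The error of the fit was small enough to bound the measured ratio at the brightest probe of each gene. The 95% confidence interval of the log2 ratio lay within a 2-fold change either way for all 37 genes. For 36 of them it lay within a 1.5-fold change, the exception being Rps6ka1, whose interval ran from -0.01 to 0.60. The interval held 0 for 30 genes. A p that misses the threshold does not show that a gene was equal in both genotypes. The intervals state how large a measured ratio of that probe these 4 arrays leave possible. They leave out differences between probes of a gene, as for Rps6ka3, where another kept probe stood at -0.26 against 0.17. Ratios of dim probes may be drawn toward 0 by the offset of the background correction, which was not tested. Among the dim members were Foxo3 and Rps6ka2, with mean control levels (log2) of 6.91 and 7.09.

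**Figure D2:**
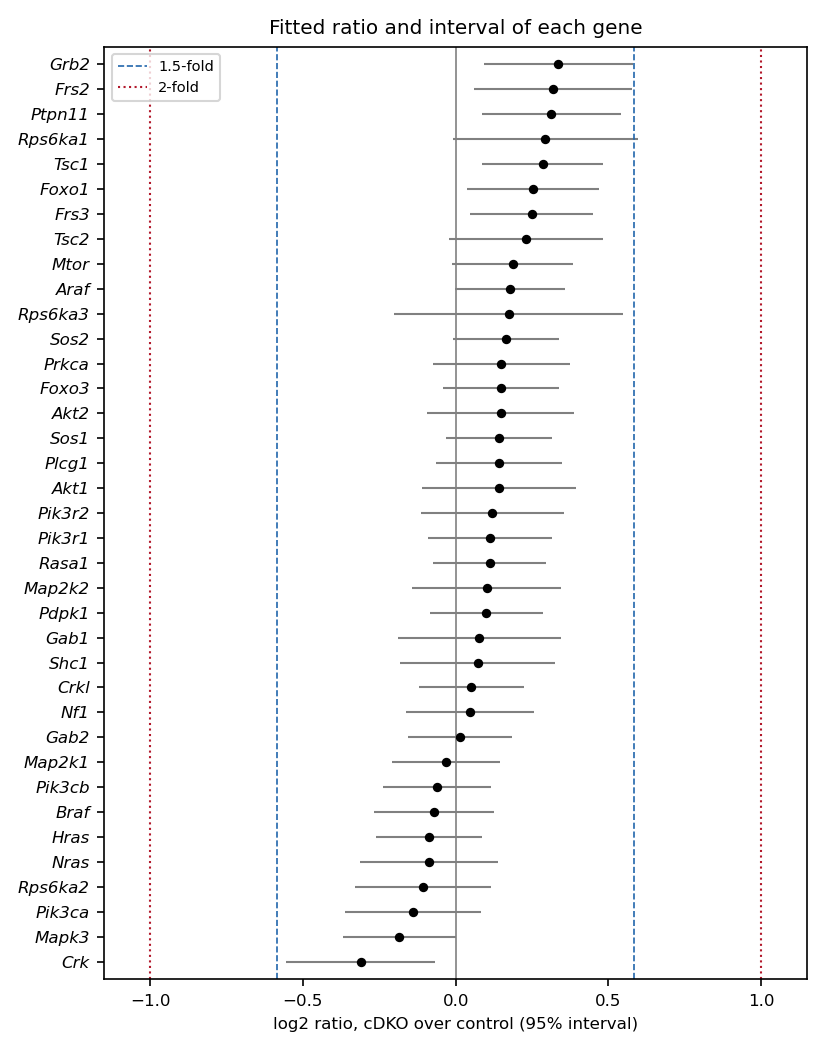
Fitted log2 ratio of cDKO over control (x axis, points) with its 95% confidence interval (bars) for the 37 genes, ordered by ratio. Dashed lines mark 1.5-fold and dotted lines 2-fold; every interval lies within 2-fold, and that of Rps6ka1 crosses the 1.5-fold line.

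The ratios leaned to the positive side. Of the 37 fitted ratios 28 were above 0 (75.7%), against 52.7% of all genes, and their median was 0.12, against 0.01 over all genes. The members' median was 0.076 without replicate 1, and 0.078 with the mean over a gene's kept probes in place of its brightest probe. On all 4 arrays 9 members were positive and 2 negative, together 29.7%, against 25.2% of all genes (13.4% positive and 11.8% negative). The cDKO and control levels did not overlap for 3 members (8.11%), against 8.04% of all genes. These were Grb2 and Tsc1, higher in cDKO (against 4.71% of all genes), and Crk, lower (against 3.33%).

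The probes behind these values are 60 bases long, and their GC content ranged from 15% to 55%. Of the 62, 60 were well enough above background to be kept, and at least 1 of them belonged to each of the 37 genes. For the 34 genes in the RefSeq promoter table (GRCm38.p6), all 55 probes have the strand of their gene. The coordinates below are those of the file headers, on build mm9, and no gene annotation of that build was used here. Among the 15 genes with several kept probes, 9 had all their probes on one side of 0, and the median difference between the highest and the lowest probe of a gene was 0.14. Sequences are shown from the 3 genes whose probes were farthest apart, since there the value of the gene depends on which probe is read. Probes whose letters read through as the protein of the gene are given whole, and of the others the first 30 bases are given, 5′ to 3′ on the strand of the transcript.
Rps6ka3, chrX:155765725-155766303: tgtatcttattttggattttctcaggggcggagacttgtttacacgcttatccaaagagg
Rps6ka3, chrX:155800637-155800696: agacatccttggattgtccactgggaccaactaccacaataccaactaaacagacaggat
Rps6ka3, chrX:155805050-155805109: ttttattccagtctttaactgttcataatg
Grb2, chr11:115505444-115505488: attttggaattggagatatcatgaagcctt
Crk, chr11:75505892-75505951: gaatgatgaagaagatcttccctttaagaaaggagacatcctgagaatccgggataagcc
Crk, chr11:75517097-75517156: gtttatataagcattctgttacctgggatc
Crk, chr11:75518627-75518686: tcagtgatactgaatggacaggtttgtagc
The interval of the first Rps6ka3 probe spans 579 bases and that of a Map2k2 probe 1067 bases, more than a probe's length, so both join separate stretches of the genome. The interval given for the Grb2 probe shown covers 45 of its 60 bases.

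**Figure D3:**
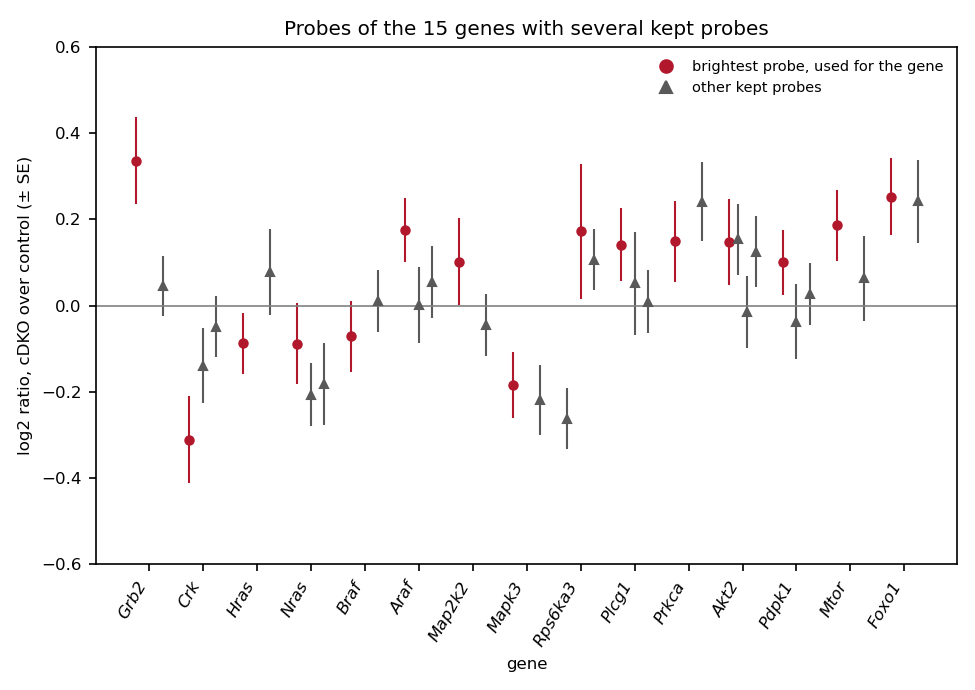
Log2 ratio of cDKO over control (y axis, bars are the SE of the fit) for each kept probe of the 15 genes with several. Circles are the brightest probe, which stands for the gene, and triangles the others. The probes of Rps6ka3 reach from -0.26 to 0.17 and those of Grb2 from 0.05 to 0.34, while those of Foxo1 and Mapk3 nearly coincide.

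Among the adaptors next to the receptor, Grb2 had the highest ratio of all 37 genes. GRB2 links FRS and other phosphorylated proteins to SOS. Its brightest probe (chr11:115505444-115505488) gave log2 ratios of 0.37, 0.62, 0.26 and 0.10 on replicates 1 to 4. All 4 were positive, with a fitted ratio of 0.34 ± 0.10 (SE, n = 4; adjusted p = 0.16), a 1.26-fold difference that did not pass the test. The levels, on the log2 scale of scaled intensity, reached from 13.28 to 13.52 in cDKO and from 12.90 to 13.19 in control and did not overlap. The other Grb2 probe gave 0.07, 0.04, 0.07 and -0.001 on the same arrays. The difference was thus seen at 1 of the 2 probes, and the mean over both was 0.19. That other probe was dimmer, with a mean control level of 9.42 against 13.03. The parts of position and brightness in the gap were not tested.

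Frs2 and Frs3 encode the docking proteins that FGF receptors phosphorylate directly. Frs2 (chr10:116507186-116507245) stood at 0.63, 0.08, 0.15 and 0.42, all positive but widely spread, with a fitted ratio of 0.32 ± 0.11 (adjusted p = 0.185). Its levels overlapped, with 13.19 to 13.39 in cDKO and 12.76 to 13.22 in control. Frs3 (chr17:47841145-47841204) stood at 0.11, 0.22, 0.44 and 0.22, with a fitted ratio of 0.25 ± 0.08 (adjusted p = 0.185) and overlapping levels (7.19 to 7.81 in cDKO, 6.82 to 7.66 in control). Each gene had a single probe.

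Crk was the lowest of the 37. It encodes an adaptor that joins phosphorylated docking proteins to exchange factors of small GTPases. The brightest probe (chr11:75518627-75518686) gave -0.13, -0.62, -0.34 and -0.15, negative on every array, with a fitted ratio of -0.31 ± 0.10 (adjusted p = 0.175). The cDKO levels (12.76 to 13.09) lay below the control levels (13.15 to 13.44). At chr11:75517097-75517156 the ratios were -0.26, -0.20, -0.27 and 0.18, and at chr11:75505892-75505951 they were -0.23, 0.18, -0.29 and 0.14. Both of these probes thus fell on either side of 0 between arrays, with fitted ratios of -0.14 and -0.05, and the mean over the 3 was -0.17. Both were also dimmer, with mean control levels of 7.85 and 7.43 against 13.29 for the brightest. Crkl, a close relative of Crk, had the tightest values of all members, 0.07, 0.03, 0.01 and 0.10 (fitted 0.05 ± 0.07). The remaining adaptors, Shc1 (0.07), Gab1 (0.08) and Gab2 (0.01), had values on both sides of 0. Gab2 was well above background on 3 of 4 arrays in the cDKO channel and on all 4 in the control channel.

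Of the proteins that load RAS, Ptpn11 had the highest ratio. It encodes the tyrosine phosphatase SHP2, which promotes RAS activation downstream of FRS and GAB. The probe at chr5:121580585-121580644 gave 0.43, 0.50, 0.02 and 0.30, with the smallest value on replicate 3, and a fitted ratio of 0.31 ± 0.09 (adjusted p = 0.16). The levels overlapped narrowly (15.22 to 15.51 in cDKO, 14.79 to 15.27 in control). The exchange factor genes Sos1 and Sos2 stood at 0.14 ± 0.07 and 0.16 ± 0.07, Sos2 positive on all 4 arrays and Sos1 on 3. The RAS genes themselves, Hras and Nras, were both at -0.09 with SEs of 0.07 and 0.09, each with 2 arrays on either side of 0 at the brightest probe. The other 2 kept Nras probes stood at -0.21 and -0.18, and the other kept Hras probe at 0.08. Rasa1 and Nf1, whose products return RAS to the GDP-bound state, stood at 0.11 and 0.05.

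Within the kinase cascade Mapk3, which encodes ERK1, was the member with a steady sign. Its brightest probe (chr7:133908973-133909032) gave -0.23, -0.29, -0.06 and -0.15, all below 0, with a fitted ratio of -0.18 ± 0.08 (adjusted p = 0.258). The levels overlapped (12.60 to 13.09 in cDKO, 12.90 to 13.16 in control). The second Mapk3 probe, at chr7:133908255-133908314, gave -0.47, -0.17, -0.28 and 0.05, a fitted ratio of -0.22 that was not called over all kept probes either. The kinases above ERK showed no shared sign: Araf stood at 0.18, Map2k2 at 0.10, Map2k1 at -0.03 and Braf at -0.07. The other kept probe had the opposite sign for Map2k2 (-0.04) and for Braf (0.01). The 2 probes for the Araf transcript NM_001159645 gave 0.002 and 0.05, below the 0.18 of the probe for NM_009703.

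The RSK kinases, which ERK activates, included the pair of members with the widest spread over arrays, Rps6ka1 and Rps6ka3. Rps6ka1 gave 0.08, 1.01, -0.23 and 0.32, the widest spread of all 37 (SD 0.53), and a fitted ratio of 0.29 ± 0.13. Rps6ka2 gave -0.25, -0.25, -0.05 and 0.12, an SD of 0.18, equal to the median of the members, and was well above background on 3 of 4 arrays in the control channel. Rps6ka3 is described further because its probes were the farthest apart. Its brightest probe gave 0.09, -0.21, 0.02 and 0.79, where replicate 4 stood high. Its fitted ratio was 0.17 ± 0.16, and within slide 1 (replicates 1 and 2) the mean was -0.06. On replicate 4 the control channel was at 9.24, while the other 7 channels lay between 9.93 and 10.19. The probe at chrX:155800637-155800696 gave -0.22, -0.28, -0.22 and -0.33, negative and close together on all 4 arrays, with a fitted ratio of -0.26 ± 0.07. It was not called among the 25591 kept probes, of which 0.594% were, and no other member probe was. The third probe stood at 0.11 ± 0.07.

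In the PLCG branch, the brightest probes of Plcg1 (0.14) and Prkca (0.15), which encodes protein kinase C alpha, were positive on 3 arrays each. Both were below 0 on replicate 3. Other kept probes gave 0.05 and 0.01 for Plcg1 and 0.24 for Prkca. The PI3K subunits were near 0. The catalytic subunit genes Pik3ca and Pik3cb stood at -0.14 and -0.06, and the regulatory subunit genes Pik3r1 and Pik3r2 at 0.11 and 0.12, with SEs of 0.07 to 0.10. Akt1, Akt2 and Pdpk1, whose product activates AKT, stood at 0.14, 0.15 and 0.10 at their brightest probes. Other kept probes gave 0.15, -0.01 and 0.13 for Akt2, and -0.04 and 0.03 for Pdpk1. The value of Akt1 came from replicate 2 (0.54), while the other arrays lay between -0.01 and 0.04.

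The members at the end of the PI3K route were all positive in the fit. Tsc1, which with TSC2 forms the complex that holds mTOR in check, had the smallest p of all members. Its probe (chr2:28546610-28546669) gave 0.39, 0.31, 0.09 and 0.35, all positive, with a fitted ratio of 0.29 ± 0.08 (adjusted p = 0.147), a 1.22-fold difference. The cDKO levels (12.37 to 12.54) lay above the control levels (12.14 to 12.28) without overlap. Tsc2 stood at 0.23 ± 0.10 and Mtor at 0.19 ± 0.08. The brightest Mtor probe was positive on all 4 arrays. The other kept Mtor probe gave 0.02, -0.06, 0.50 and -0.20, with a fitted ratio of 0.06. Tsc2 ranged from -0.15 on replicate 3 to 0.71 on replicate 2. The transcription factor genes Foxo1 (0.25 ± 0.09, adjusted p = 0.204) and Foxo3 (0.15 ± 0.08) were positive on replicates 1, 2 and 4 and slightly negative on replicate 3. Both Foxo1 probes gave nearly the same value, 0.25 and 0.24.

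The size of the ratios differed between the slides on which the arrays were hybridised. Replicates 1 and 2 shared slide 1 and replicates 3 and 4 slide 2, and each slide also had its own scan and scanner. The members' median was 0.18 on slide 1 and 0.04 on slide 2, against 0.003 and 0.008 over all genes, and the mean ratio was larger in size on slide 1 for 30 of the 37 (81.1%), against 62.6% of all genes. The sign was the same on both slides for 26 (70.3%), against 61% of all genes. A test of the difference between slides called none of the members (lowest adjusted p = 0.21, for Rps6ka1), against 0.893% of all genes. At an unadjusted p under 0.05 it found 5 members, Rps6ka1, Tsc2, Map2k2, Akt2 and Shc1, each higher on slide 1, against 14.3% of all genes. With the slide as a term in the fit, 4 members were called, Ptpn11 (adjusted p = 0.0269), Grb2 (0.0277), Tsc1 (0.0437) and Rps6ka1, all higher in cDKO. This was 10.8% of members, against 12.5% of all genes called and 8.01% called higher. With 1 residual degree of freedom and the slide difference removed, the error of that fit is not the spread over the 4 pairs.

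**Figure D4:**
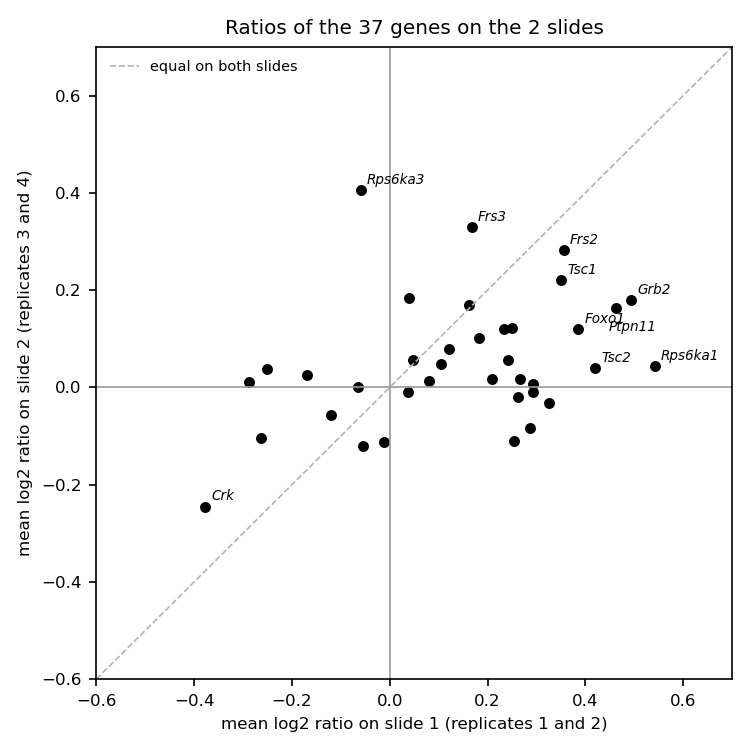
Mean log2 ratio of cDKO over control on slide 1 (x axis, replicates 1 and 2) against slide 2 (y axis, replicates 3 and 4) for the 37 genes, with the dashed line of equal values. Most points lie nearer to 0 on slide 2, with medians of 0.18 on slide 1 and 0.04 on slide 2, and Crk, Frs2 and Tsc1 are among those of like sign on both.

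Replicates 1 and 4 carried female and replicates 2 and 3 male labels. A difference by these labels and a dye effect that differs between the slides follow the same order of arrays and cannot be told apart. The difference of the ratio between these labels was not called for any member in limma, nor did any reach an unadjusted p under 0.05, against 1.07% of all genes. A dye effect was called for none of them (2 at an unadjusted p under 0.05, Araf and Rps6ka1, against 8.8% of all genes).

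A wider list of 93 further genes of these routes was examined in the same fit, with lists drawn up when earlier results of these data were known. Of the 91 measured, 2 were called, against the same 0.852%. The median of all 91 was 0.04, against 0.01 over all genes, and 56 lay above 0 (61.5%, against 52.7% of all genes). Grb14, which encodes an adaptor that binds the insulin receptor and other receptor kinases, rose, with 0.66, 0.62, 0.56 and 0.48 on the 4 arrays (fitted 0.58 ± 0.07, adjusted p = 0.0363). Rasgrf1, which encodes a calcium-regulated RAS exchange factor, fell, with -0.64, -0.38, -0.68 and -0.29 (fitted -0.49 ± 0.07, adjusted p = 0.0456). Both had arrays that all lay on 1 side of 0. Without replicate 1, 2 or 3 neither gene was called. The adjusted p of Grb14 was then 0.146, 0.0759 and 0.0516, and that of Rasgrf1 0.174, 0.0949 and 0.0899.

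None of the other groups in that list had a called gene. Among 15 MAPK kinases and scaffolds, the scaffold gene Shoc2 (-0.25 ± 0.07) had the smallest p. Among 7 phospholipase and protein kinase C genes the smallest were those of Prkcz (0.23 ± 0.07) and Prkcb (-0.20 ± 0.08). Of 16 PI3K, lipid phosphatase and AKT genes they were those of Inppl1 (0.56 ± 0.10, adjusted p = 0.0669) and Inpp4b (0.35 ± 0.07, adjusted p = 0.0918), both of which encode phosphatases that remove phosphate from inositol lipids. Both were positive on all 4 arrays. Of 21 genes of the mTOR complexes and their effectors they were those of Rptor, an mTORC1 subunit gene (0.38 ± 0.10), and Foxo6 (0.27 ± 0.07). In that group 9 genes lay above 0 and 12 below, with a median of -0.02.

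Since FOXO factors are held out of the nucleus by AKT, genes that they are known to activate were read as well. Of 18 measured, 1 was called, against 0.852% of all genes. This was Fbxo32, which encodes a ubiquitin ligase induced by FOXO factors in muscle. It rose, with 0.81, 1.04, 0.33 and 0.83 on the 4 arrays and a fitted ratio of 0.75 ± 0.10 (adjusted p = 0.0385). Its call was lost without replicate 1 (0.12) and without replicate 2 (0.0806). The list did not move one way, since 8 of its genes lay above 0 (44.4%, against 52.7% of all genes) and 10 below, with a median of -0.01.

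Across the arrays, the median spot signal lay between 138.7 and 417.3 per channel, between 64.9% and 72.6% of spots were well above background, and no spot was saturated. Fgfr2, a targeted gene, gave 0.59 ± 0.07 (adjusted p = 0.0356), and Fgfr1 -0.40 ± 0.10 (adjusted p = 0.117); whether these probes lie in the deleted parts is not known here, so they check nothing. Markers of the labelled tissue were present, with 9 of 9 measured mesenchyme markers and 12 of 12 urothelium markers well above background on every array. All 9 mesenchyme markers were positive (median 0.38), of which Ptch1 rose (0.55). The largest called changes among the markers were falls of the urothelial Upk1b (-1.43) and the mesothelial Msln (-0.82). The urothelial Krt20 (-0.62) also fell, while the medians were -0.04 over 12 urothelial and -0.35 over 4 mesothelial markers. The other uroplakin genes, Upk3a (-0.91), Upk2 (-0.59) and Upk1a (-0.59), were negative in the fit but not called. Shh stood at 0.53, not called, and the remaining 6 urothelial markers were within 0.2 of 0. The median was -0.34 for 6 erythroid, -0.31 for 7 endothelial and -0.19 for 7 macrophage and leukocyte markers. Of these, 2, 1 and 1 were called as falls, against 0.3% of all genes. No marker was called among 7 of smooth muscle (median 0.05), 6 of nerve and glia (-0.11) and 6 of kidney (0.15). At an unadjusted p under 0.05 in limma there were 3, 3 and 2 (42.9%, 50% and 33.3%), against 19.6% of all genes. That share was 88.9% for mesenchyme, 50% for urothelial, 57.1% for endothelial and 42.9% for macrophage and leukocyte markers. It was 100% for erythroid and 75% for mesothelial markers. Levels were also summed unlogged over each list, so the brightest markers weigh most and the sum does not measure the whole list. The summed level was 16.64 to 16.94 in cDKO and 16.22 to 16.69 in control for the mesenchyme markers. It was 18.21 to 18.73 against 18.63 to 18.97 for the erythroid and 13.71 to 14.04 against 14.11 to 14.34 for the macrophage and leukocyte markers. For the endothelial markers it was 14.22 to 14.46 against 14.40 to 14.79, for the urothelial 17.38 to 17.76 against 17.45 to 17.58, and for the mesothelial 13.10 to 13.79 against 12.98 to 13.57. The brightest urothelial marker was Krt18 (0.13). The brightest mesothelial marker was Wt1 (0.26, with arrays from -0.37 to 1.30), while the other 3 were below 0. The part of these marker differences in the members' ratios was not tested. In RNA of a whole tissue, fewer cells of a type and less RNA per cell cannot be told apart.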

How the data were processed

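Per the labels' protocols, the authors labelled 150 ng of total RNA per channel with Cy3 or Cy5 and hybridised it to Agilent arrays. The submitters' processing notes name Agilent Feature Extraction 10.7.3.1, and per the file headers the probe coordinates are on mm9. The deposited scanner files hold intensity values per spot, not normalized, and, per the file headers, processed intensity values and log10 ratios (Cy5 over Cy3). Signed folds in the authors' deposited value table served as an alternative, with centring not given in the sources used here; its columns each have a median of 1-fold.

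The mean intensity of each spot was background-corrected by normexp (offset 50) and normalized within arrays by loess (span 0.3), with control and outlier spots given no weight, and the 4 spots of a probe were averaged. A probe was kept with at least 3 of its spots well above background on all 4 arrays in either group, which left 25591 of 39429. The brightest kept probe stood for a gene. Levels per channel were scaled between arrays (Aquantile). R 4.3.3 and limma 3.58.1 (lmFit, eBayes) fitted a dye and a genotype term, two-sided, with Benjamini-Hochberg adjustment over 19365 genes, 2 residual and 4.53 prior degrees of freedom. The fit was also run on simulated data. Their errors were drawn from the fit's own variance model with no slide difference, so that run does not check the model itself. The labels name no animals or pools, so p-values measure the spread between 4 pairs of extracts, which may be technical; an exact sign-flip test of 4 pairs cannot go below 0.125.

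The members and the lists were chosen with earlier results of these data known. Values are given on every array for called members, the 6 members with the smallest p, the 2 largest ratios of each sign, and members whose probes differ in sign with sizes over 0.2 (Crkl and the 3 RSK genes were added after their values were seen); of each further list, for called genes, or the 2 with the smallest p. A gene and a probe sequence that this rule would show are not reported here. Alternatives covered the dye, slide and sex terms, background, centring, filter, probe choice, pairing, the authors' folds and each replicate left out.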

Additional observations from a re-analysis of the deposited data

Results flagged for a closer look

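Among the 37 members, Akt1 was the gene with an array far from the others. Its log2 ratio was 0.54 on replicate 2, while the other 3 arrays lay between -0.01 and 0.04. The gap was 0.897 of the whole range, above Dixon's critical value for 4 samples. Chance flags about 1 in 20 such groups, and 50 genes were examined in this way.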

How the results depend on the processing

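No member was called under any of the 18 alternatives except the fit with a slide term (4). Tsc1, Ptpn11, Grb2, Crk, Frs2, Frs3 and Mapk3 kept their sign in every one. Of the 37 members, 10 turned sign within slide 2, among them Rps6ka2 (to 0.04). Within slide 1 only 1 turned, Rps6ka3 (to -0.06). The number that turned was 3 without replicate 1, 5 without replicate 2, 0 without replicate 3 and 2 without replicate 4. The count of called genes was 258 without a dye term, 2418 with a slide term, 551 within slide 1, 0 within slide 2 (limma without a dye term, 1346 at an unadjusted p under 0.05), 2 with a sex term, 255 with median centring, 1 without the filter and 73 with no replicate block, that is, with the pairing of the channels ignored; leaving out 1 replicate gave 34 (replicate 1) to 403 (replicate 4). The members' median was 0.18 within slide 1, 0.037 within slide 2, 0.078 with the mean over kept probes and 0.076 to 0.17 with 1 replicate left out. Called genes of the wider list numbered 14 with a slide term, 1 without a dye term, within slide 1 and with no replicate block, 0 within slide 2, with a sex term, with median centring and without the filter, and 0 to 2 with a replicate left out. FOXO targets called were 5 with a slide term, 2 within slide 1 and with median centring, 0 within slide 2, with a sex term and without the filter, and 0 to 2 with a replicate left out. Fits on 3 arrays, within 1 slide, or with a slide or sex term, have 1 residual degree of freedom. Those within either slide have no dye term. Otherwise the cause of the differences between alternatives was not tested. The number of arrays limits the precision.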
